A study of Mus musculus with 6 samples.

Results

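The genes described are those whose symbols begin with Rab, Vps, Snx or Chmp followed by a digit, most of them parts of the machinery that moves membrane and cargo between endosomes, lysosomes, the Golgi and the cell surface. The rule was applied to the symbols of a table of 11489 genes and found 128 members, of which 59 were Rab, 31 Vps, 29 Snx and 9 Chmp rows. The rule uses no measured value, although members were chosen with earlier results of these data known. RNA was sequenced from mouse cells, labelled as macrophages derived from bone marrow and sorted for F4/80, a surface protein of macrophages, and for an Epor-eGFP signal. Epor is the erythropoietin receptor gene. The labels give 3 F4/80+ Epor-eGFP+ and 3 F4/80+ Epor-eGFP- libraries and call the cells of each group erythroblastic island macrophages, the macrophages around which red cell precursors mature. The sources used here give no strain, age, reporter construct or number of animals. P-values therefore measure the spread between libraries, which may be technical.

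Rab proteins are small GTPases that mark a membrane and, when bound to GTP, recruit tethers, motors and sorting proteins to it. Vps proteins, named after yeast mutants that missort vacuolar proteins, build the tethers of late endosomes (HOPS and CORVET), the retromer that returns receptors from endosomes, and the ESCRT-I and ESCRT-II complexes. Sorting nexins bind phosphoinositides of endosomes through a PX domain, and several also bend the membrane through a BAR domain. Chmp proteins are the ESCRT-III subunits that polymerise to pinch membrane off, and Vps4 ATPases take the polymer apart. In macrophages these proteins carry engulfed particles from phagosome to lysosome. Secretory Rab proteins also govern granule release in granulocytes.

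Values are FPKM, a fragment count scaled to gene length and library size, so levels of different genes can be compared per length. Of the 128 members, 124 averaged at least 1 FPKM in the 6 libraries and were tested. Rab34, Snx24, Rab27b and Rab11fip3 passed that filter only through Epor-eGFP+ cells and Rab36 only through Epor-eGFP- cells, so the first 4 could be tested only by being higher in Epor-eGFP+ cells and the last only by being lower. Rab23, Rab42, Rab6b and Snx16 were not tested. The read depth behind the values is unknown, and called members are those with a Benjamini-Hochberg adjusted p below 0.05 in limma's fit of log2(FPKM + 1). Libraries are called by the numbers of their columns, 0 to 2.

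Markers of several cell types moved with the groups, although Adgre1, the gene of F4/80 itself, was at 143, 117 and 241 against 136, 132 and 139 FPKM and was not called (adjusted p = 0.463). Of 11 macrophage markers, 7 rose in Epor-eGFP+ cells and none fell, and their summed level ran from 2004 to 6268 FPKM against 642 to 926. All 8 markers of island macrophages, among them Vcam1 and Cd163, rose, with sums of 2102, 1103 and 4259.6 FPKM in libraries 0, 1 and 2 of the Epor-eGFP+ group against 135 to 172. All 9 monocyte markers fell, from sums of 4427 to 5485 to 1689.7 to 2145 FPKM. Of 14 neutrophil markers 9 fell and 4 rose, with overlapping sums of 20687 to 26461 against 26002 to 40309 FPKM, above those of the macrophage markers in every library. Of 9 eosinophil markers 5 fell and 1 rose, with overlapping sums of 8059 to 15969 against 14953 to 24512 FPKM and Prg2 listed at 0 in Epor-eGFP+ library 0. Of 14 erythroid markers 7 rose and none fell, with overlapping sums of 484 to 1959.5 against 68.6 to 809.5 FPKM. Of the 5 osteoclast markers tested, 3 rose and 1 fell, with sums over the 7 in the table of 168 to 308 against 107 to 132 FPKM and Dcstamp listed at 0 in Epor-eGFP- libraries 0 and 2. Of 5 megakaryocyte markers 1 rose, with sums of 80.4 to 170.4 against 31.7 to 90.2 FPKM. None of 6 B cell markers passed limma's test or had an unadjusted p below 0.05, with sums of 146 to 209.9 against 103 to 363 FPKM. The part of these shifts in the results below was not tested, and in sorted bulk samples fewer cells of a type and less RNA per cell cannot be told apart.

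As deposited, fewer members rose than fell in Epor-eGFP+ cells. Of the 124 tested, 16 rose and 36 fell (limma, adjusted over all 10964 tested genes), a share of 12.9% higher where all tested genes gave 22.7%, and of 29.0% lower where all tested genes gave 26.3%. In either direction 49.0% of all tested genes were called. Fold changes are those of Epor-eGFP+ over Epor-eGFP- cells in log2(FPKM + 1), and their median over the members was −0.08 beside −0.01 for all tested genes. The groups did not overlap in 74 members (59.7%), 26 with Epor-eGFP+ above and 48 with it below, beside 60.4% of all tested genes (28.4% above and 31.9% below). Genes named below for the largest rises and falls were picked to have no overlap, so that trait of theirs is no result. The counts of called members depended on the scaling. With the libraries rescaled to equal totals, 24 members rose and 22 fell and their median was 0.01, when that of all tested genes was 0.08. By that rescaling the share of calls that were higher went from 30.8% to 52.2% among members and from 46.3% to 59.5% among all tested genes. With the upper quartile as the common scale, 21 rose and 27 fell. With a replicate block for the column number 22 members rose and 50 fell, beside 3066 and 3335 of all tested genes. The count of rises was 10 without Epor-eGFP- library 0, 10 without Epor-eGFP- library 2 and 9 without Epor-eGFP+ library 0. Rises of all tested genes went from 2489 to 1730, 1958 and 1634 in the same fits. Without both libraries numbered 0, 2 members rose and 7 fell, beside 492 and 921 of all tested genes. Of the 58 called members and partners named here, 12 kept their call in all alternatives they could enter. These were Rab3il1, Rab11fip4, Rab11fip1, Rab3d, Rab8a, Vps13c, Vps37b, Snx24 (testable only as a rise), Snx20, Cd81, Inpp5f and Rin3. A further 19 lost their call only without both libraries numbered 0. The other 27 lost it there too, 26 of them also by a scaling or without a single library and Chmp2a also without both libraries numbered 1. What else ended each of these 27 calls is given below.

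**Figure D1:**
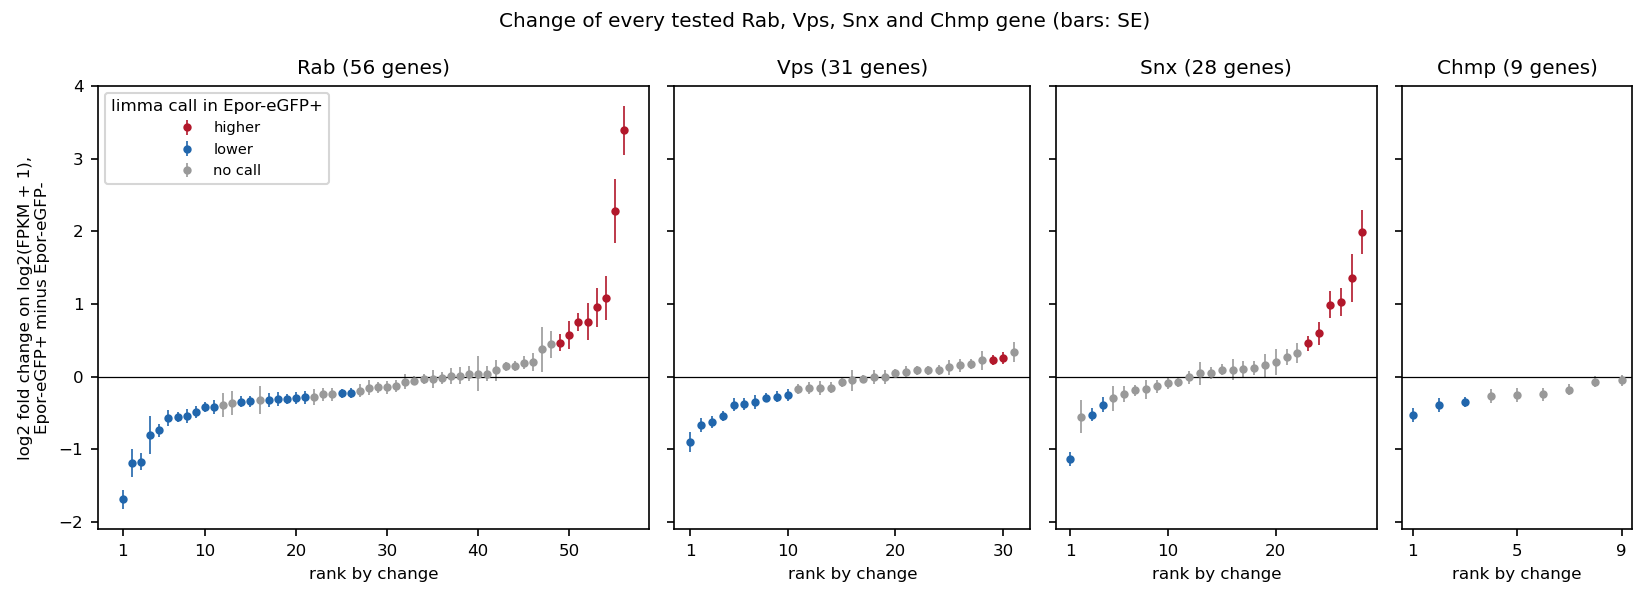
Log2 fold change (Epor-eGFP+ over Epor-eGFP-, log2(FPKM + 1) values) of the 124 tested members, ranked within each family, with bars for the SE of limma. Red points rose, blue points fell and grey points had no call. The Rab and Snx families each end in a short tail of rises (largest 3.39 for Rab3il1 and 1.99 for Snx24), Vps values stay between −0.90 and 0.34, and all 9 Chmp values lie below 0, where Chmp6 and Chmp7 turn above 0 under rescaling to a common total.

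By family, the background is again all tested genes, of which 22.7% rose and 26.3% fell. Of 56 tested Rab rows 8 rose (14.3%) and 20 fell (35.7%), with a median log2 fold change of −0.15. Of 31 Vps genes 2 rose (6.45%) and 10 fell (32.3%), with a median of −0.05, or 0.03 with libraries rescaled to a common total. Of 28 tested Snx genes 6 rose (21.4%) and 3 fell (10.7%). The Snx median was 0.07, or −0.03 without Epor-eGFP+ library 2 and −0.02 with library weights. Of 9 Chmp genes none rose and 3 fell (33.3%), with a median of −0.25. Rab34 and Snx24 among these rises and Rab36 among these falls could be tested only in that direction. Members without a call ran from −0.39 (Rab29) to 0.45 (Rab12) among Rab rows, from −0.17 (Vps28) to 0.34 (Vps41) among Vps genes and from −0.55 (Snx21) to 0.33 (Snx13) among Snx genes. The groups overlapped in 19 of these 28 Rab, 12 of 19 Vps and 15 of 19 Snx genes. The share over all genes without a call was not computed, so these counts are not read as particular to a family. With libraries rescaled to a common total, 11 Rab rows rose and 11 fell, 5 Vps genes rose and 5 fell, and 8 Snx genes rose and 3 fell. Of all tested genes 3053 rose and 2082 fell by that rescaling. Rab rises numbered 5 without Epor-eGFP- library 0, 4 without Epor-eGFP- library 2 and 3 without Epor-eGFP+ library 0, and Rab falls 13 without either library 0 singly. In the same fits rises of all tested genes went from 2489 to 1730, 1958 and 1634. Falls of all tested genes went from 2883 to 2119 without Epor-eGFP- library 0 and to 2057 without Epor-eGFP+ library 0. Vps rises numbered 2 without Epor-eGFP+ library 1, 1 without Epor-eGFP- library 1 and 0 without any other single library, and Vps falls 6 without Epor-eGFP+ library 0. Of all tested genes 2234 rose without Epor-eGFP+ library 1, 2298 without Epor-eGFP- library 1 and 2479 without Epor-eGFP+ library 2. Without Epor-eGFP+ library 2, 5 Snx and 7 Chmp genes fell, as did 2695 of all tested genes. With a replicate block for the column number, 10 Rab rows rose and 25 fell, 5 Vps genes rose, 6 Snx genes fell and 7 Chmp genes fell. Of all tested genes 3066 rose and 3335 fell with that block. Summed over a family, Rab rows were at 1522, 1461 and 1666 FPKM in libraries 0, 1 and 2 of the Epor-eGFP+ group against 1776, 1707 and 1753 FPKM, so the groups did not overlap. Chmp sums did not overlap either, at 406, 391 and 448 against 495, 479 and 539 FPKM. Vps sums were apart as well, at 701, 707 and 739 against 757, 750.2 and 783 FPKM. Snx sums overlapped, at 790.2, 732 and 978 against 754, 727 and 816 FPKM. The summed FPKM of the whole table was itself lower in each Epor-eGFP+ library, at 467176 to 501037 against 505141 to 519650 FPKM. As a percent of that sum, Rab rows took 0.313 to 0.333 against 0.338 to 0.342 and Chmp genes 0.0837 to 0.0894 against 0.0948 to 0.104, without overlap, while Vps genes took 0.148 to 0.151 against 0.146 to 0.152 and Snx genes 0.157 to 0.195 against 0.144 to 0.158, with overlap.

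The stretches before the transcription starts of the members were read for CACGTG, the core of the E-box that TFEB and related factors of lysosomal genes bind. RefSeq starts (GRCm38.p6) were at hand for 94 of the 128 members. In the 250 bases before a start, CACGTG, which reads the same on each strand, occurred in 4 of the 10 such members with a rise (Rab20, Rab3il1, Snx5 and Snx8), in 3 of the 25 with a fall (Rab21, Rab27a and Rab5a) and in 6 of the 56 without a call. It was in 14 of all 94 members (14.9%). Among all 27025 genes with such windows the share was 6.86%. A match says nothing of binding, and genes with several starts had more than 1 window. The 10 rising members had 17 windows, the 25 falling members 33 and all 27025 genes 32851, and more windows give more chances of a match. All 27025 genes include genes not tested here, and the share among tested genes was not computed. The stretches outside annotated exons are shown with CACGTG in capitals and up to 50 bases on each side, because they let the rising Snx8 be compared with the falling Rab27a and Rab5a. Rab5a has a pair of them. The Rab27a stretch lies inside the annotated gene (chr9:73044854-73097629, plus strand), so it precedes an internal start. The stretches with a match at Rab3il1, from chr19:10018102 on, likewise lie inside that gene (chr19:10001669-10038380, plus strand).
Snx8, chr5:140389353-140389458, minus strand, 100 bases before the start: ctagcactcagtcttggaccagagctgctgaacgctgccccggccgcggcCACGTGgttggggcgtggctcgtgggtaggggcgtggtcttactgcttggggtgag
Rab27a, chr9:73063898-73063957, plus strand, 246 bases before the start: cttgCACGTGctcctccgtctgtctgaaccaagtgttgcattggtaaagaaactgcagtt
Rab5a, chr17:53478984-53479054, plus strand, 235 bases before the start: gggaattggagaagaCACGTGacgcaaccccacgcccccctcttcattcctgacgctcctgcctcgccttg
Rab5a, chr17:53479089-53479194, plus strand, 95 bases before the start: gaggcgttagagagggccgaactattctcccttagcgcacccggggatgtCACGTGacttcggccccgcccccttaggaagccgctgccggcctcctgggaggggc
A further 3 motifs were counted on both strands in the same windows, and none contains another. GAGGAA, a core of PU.1 sites, was in 3 of 10 rising and 5 of 25 falling members beside 25.9% of all genes. TGACTCA, an AP-1 site, was in 1 and 1 beside 5.16%, and AGATAA, which erythroid factors of the GATA family bind, in 1 and 1 beside 11.4%.

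Rab3il1, which encodes an exchange factor that loads GTP onto Rab8 proteins, had the largest change of any member on the log2(FPKM + 1) scale. It was at 36.8, 22.1 and 63.4 FPKM in libraries 0, 1 and 2 of the Epor-eGFP+ group, whereas the Epor-eGFP- values were 2.73, 2.90 and 2.36 FPKM. Every Epor-eGFP+ value lay far above every Epor-eGFP- value, and among the former library 2 was highest and library 1 lowest (a log2 fold change of 3.39 with SE 0.33 and adjusted p = 0.000676). Its mean was 40.8 ± 20.9 FPKM against 2.66 ± 0.279 (SD, n = 3 per group), or 29.5 without Epor-eGFP+ library 2. Rab3il1 spans chr19:10001669-10038380 (GRCm38, plus strand). Rab3ip, which encodes the related Rab8 exchange factor Rabin8, was at 2.13, 2.92 and 2.48 FPKM in Epor-eGFP+ and 3.10, 3.31 and 3.29 in Epor-eGFP- libraries and did not pass (adjusted p = 0.0716). Per library, the ratio of Rab3il1 to Rab3ip was 17.3, 7.59 and 25.6 among Epor-eGFP+ and 0.882, 0.876 and 0.716 among Epor-eGFP- cells. An exact two-sided permutation test of that ratio gave p = 0.1, the smallest that 3 against 3 libraries allow. This pair and the other ratios below were chosen after their values were seen, and adjusted over all 10 pairs computed no p was below 0.111.

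Of the 9 tested Rab genes of late endosomes, lysosomes and phagosomes 4 rose and 1 fell. Rab34, among the 4, could be tested only by being higher, so its rise adds no support to that count. Of all tested genes 22.7% rose and 26.3% fell, the background for each count by role here and in the paragraphs that follow, and with so few genes a role no count is read as particular to it. Rab34, linked to lysosome positioning and to the fusion of phagosomes with lysosomes, was at 6.01, 2.08 and 10.8 FPKM in libraries 0, 1 and 2 of the Epor-eGFP+ group against 0.490, 0.258 and 0.171 FPKM. It was under 1 FPKM in each Epor-eGFP- library and varied widely among the Epor-eGFP+ libraries (a log2 fold change of 2.28 with SE 0.44 and adjusted p = 0.00599), with a mean of 6.28 ± 4.35 FPKM or 4.04 without library 2. Its ratio of group means, 20.5, was above the 15.3 of Rab3il1, although its mean in Epor-eGFP- cells was 0.306 ± 0.165 FPKM. Rab20, a Rab of phagosome maturation in macrophages, was at 12.8, 7.94 and 19.0 FPKM against 6.62, 5.67 and 5.68 FPKM (a log2 fold change of 0.95 with SE 0.27 and adjusted p = 0.0238). Rab20 lost its call without Epor-eGFP- libraries 0, 1 or 2 or Epor-eGFP+ library 0 (each left out singly) or without both libraries numbered 2, with adjusted p = 0.0552 to 0.0705, and all 19 alternatives gave 0.000263 to 0.141. Rab7b, a relative of Rab7 that acts between endosomes and the trans-Golgi network, was at 10.3, 11.3 and 9.53 FPKM against 5.21, 5.10 and 6.96, with close values in each group and none shared (a log2 fold change of 0.76 with SE 0.12 and adjusted p = 0.00327). Rab38, which serves lysosome-related organelles, was at 14.0, 11.7 and 15.6 FPKM against 8.47, 10.8 and 4.85 (a log2 fold change of 0.76 with SE 0.25 and adjusted p = 0.0415, or adjusted p = 0.0624 with the replicate block). Rab38 lost its call without Epor-eGFP- libraries 0 or 2 or Epor-eGFP+ libraries 0, 1 or 2 (each left out singly) or without both libraries numbered 2, with adjusted p = 0.0507 to 0.108, and all 19 alternatives gave 0.00105 to 0.184.

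Rab7 itself, the GTPase that drives late endosomes and phagosomes to fuse with lysosomes, had the highest mean level of all Rab genes and fell slightly. It was at 152, 151 and 171 FPKM in libraries 0, 1 and 2 of the Epor-eGFP+ group and at 187, 187 and 207 FPKM in the other group (a log2 fold change of −0.29 with SE 0.08 and adjusted p = 0.0253). Rab7 lost its call without Epor-eGFP- libraries 0 or 2 or Epor-eGFP+ libraries 0 or 1 (each left out singly) or with a common total or quantile normalization or without both libraries numbered 1, with adjusted p = 0.0583 to 0.220, and all 19 alternatives gave 0.000400 to 0.220. The ratio of Rab7b to Rab7 was 0.0676, 0.0749 and 0.0558 in Epor-eGFP+ and 0.0279, 0.0273 and 0.0335 in Epor-eGFP- libraries (exact permutation p = 0.1), so Rab7 stayed the more abundant per length by a wide margin.

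**Figure D2:**
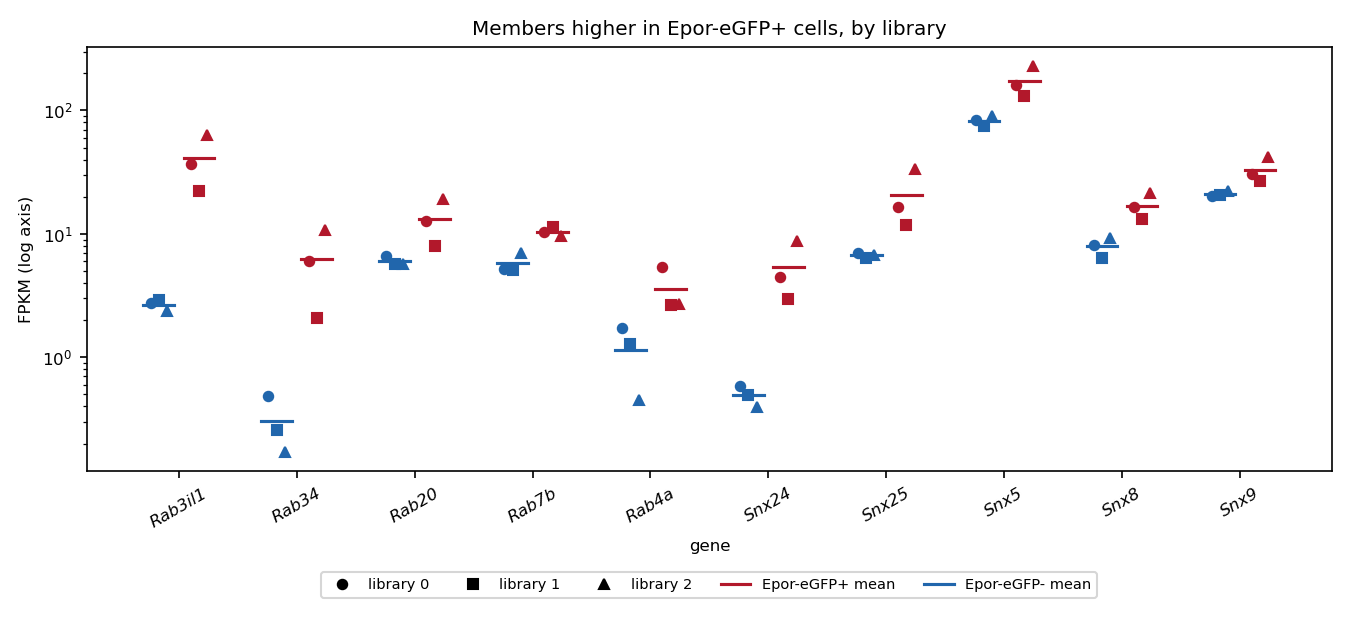
FPKM on a log axis of 10 members that rose in Epor-eGFP+ cells, in each library (circles, squares and triangles for libraries 0, 1 and 2), with a line at each group mean. Red marks Epor-eGFP+ and blue Epor-eGFP-. No gene has overlapping groups, which was a condition for picking these largest rises. For 8 of the 10 genes the red triangle is highest and the red square lowest, Rab7b and Rab4a being the exceptions.

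The Rab genes of early endosomes included no rise and 3 falls among 6 tested, where 26.3% of all tested genes fell. Rab5a, Rab5b and Rab5c encode isoforms of the master GTPase of early endosomes, which drives their fusion. Rab5a fell, at 22.2, 21.5 and 23.9 FPKM in libraries 0, 1 and 2 of the Epor-eGFP+ group against 30.7, 27.0 and 29.0 FPKM, with no overlap (a log2 fold change of −0.35 with SE 0.08 and adjusted p = 0.0106). Rab5b was at 45.3 ± 4.51 against 53.8 ± 2.63 FPKM and missed the threshold (adjusted p = 0.0555). Rab5b passed with the replicate block (0.0434) and without Epor-eGFP+ library 2 (0.0160), over a range of 0.000311 to 0.399 in all alternatives. Rab5c, the most abundant of the isoforms, was at 133, 117 and 157 FPKM against 135, 129.6 and 138, with overlapping groups (a log2 fold change of 0.01 with SE 0.11 and adjusted p = 0.969), and the sign of its log2 fold change turned without Epor-eGFP- library 1 (−0.02), without Epor-eGFP+ library 2 (−0.10) and with library weights. The ratio of Rab5c to Rab5a was 6.005, 5.43 and 6.55 in Epor-eGFP+ and 4.39, 4.80 and 4.75 in Epor-eGFP- libraries (exact permutation p = 0.1). Rab21, which carries integrins through early endosomes, and Rab31 made up the other falls (log2 fold change −0.34 and −0.28, adjusted p = 0.0111 and 0.0360). Rab21 lost its call without Epor-eGFP+ library 0 or with a common total, with adjusted p = 0.0516 to 0.0628, and all 19 alternatives gave 7.10e-05 to 0.178. Rab31 lost its call without Epor-eGFP- libraries 0, 1 or 2 or Epor-eGFP+ libraries 0 or 1 (each left out singly) or with a common total, a common upper quartile or quantile normalization or without both libraries numbered 1, with adjusted p = 0.0513 to 0.122, and all 19 alternatives gave 0.000359 to 0.255.

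Recycling Rab genes went both ways. Rab11a, which marks the recycling endosome, fell from 40.8 ± 2.59 to 28.8 ± 2.40 FPKM, with 42.6, 41.9 and 37.8 FPKM in Epor-eGFP- and 28.6, 26.6 and 31.3 in Epor-eGFP+ libraries (a log2 fold change of −0.49 with SE 0.09 and adjusted p = 0.00443). Rab11fip4, which encodes a protein that binds Rab11, had the largest fall of any member on the log2(FPKM + 1) scale. It was at 2.90, 2.02 and 1.97 FPKM in libraries 0, 1 and 2 of the Epor-eGFP+ group against 10.3, 9.75 and 8.66 FPKM, close within each group and far apart between them (a log2 fold change of −1.69 with SE 0.13 and adjusted p = 0.000384). Rab11fip4 spans chr11:79591212-79698023 (plus strand). Rab11fip1 was at 4.94, 5.51 and 3.84 FPKM against 12.0, 11.7 and 11.9 and likewise fell without overlap (a log2 fold change of −1.17 with SE 0.12 and adjusted p = 0.000694). Rab11fip2 fell from 1.91 ± 0.0411 to 1.33 ± 0.166 FPKM (adjusted p = 0.0353). Rab11fip2 lost its call without Epor-eGFP- libraries 0, 1 or 2 or Epor-eGFP+ libraries 0 or 2 (each left out singly) or with a common total or a common upper quartile or without both libraries numbered 1 or both numbered 2, with adjusted p = 0.0646 to 0.128, and all 18 alternatives gave 0.000445 to 0.284. Rab4a and Rab4b, which encode isoforms of the GTPase of rapid recycling to the surface, moved in opposite directions. Rab4a rose from 1.73, 1.28 and 0.447 FPKM in libraries 0, 1 and 2 of the Epor-eGFP- group to 5.37, 2.67 and 2.69 in Epor-eGFP+ libraries (a log2 fold change of 1.09 with SE 0.30 and adjusted p = 0.0226). Rab4a lost its call without Epor-eGFP- library 2 or Epor-eGFP+ library 0 (each left out singly) or without both libraries numbered 1, with adjusted p = 0.0556 to 0.0651, and all 18 alternatives gave 0.000390 to 0.0651. Rab4b fell from 48.5 ± 2.36 to 36.1 ± 3.72 FPKM (a log2 fold change of −0.42 with SE 0.09 and adjusted p = 0.00989) and stayed the more abundant per length, with a Rab4a to Rab4b ratio of 0.140, 0.0839 and 0.0704 against 0.0347, 0.0279 and 0.00900 (exact permutation p = 0.1). Rab35, another recycling GTPase, fell by 0.42 on the log2 scale (SE 0.06, adjusted p = 0.00256). Rab4b and Rab35 were chosen after their values were seen, as were Rab11fip2, Rab3ip, Rab21 and Rab31 above and Rab37, Rab8b, Rab13, Rab33b, Rab6a, Rab1b, Rab43, Vps41, Vps36, Vps37c, Vps13d and the last 3 genes named below.

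Of 10 tested Rab genes of secretion and surface transport, 5 fell and 1 rose, beside 26.3% and 22.7% of all tested genes. Rab27a, which docks secretory granules and exosome-bearing endosomes at the plasma membrane, was at 47.0, 51.0 and 40.3 FPKM in libraries 0, 1 and 2 of the Epor-eGFP+ group against 72.2, 71.2 and 63.0 FPKM (a log2 fold change of −0.57 with SE 0.10 and adjusted p = 0.00493). Rab3d, a GTPase of regulated granule release, was at 32.3, 33.5 and 28.4 FPKM against 55.9, 54.8 and 48.8 (a log2 fold change of −0.74 with SE 0.09 and adjusted p = 0.00122). Rab8a, the GTPase of transport to the surface and cilium that Rab3il1 activates, was at 60.8, 61.0 and 60.7 FPKM against 93.5, 85.1 and 90.8 (a log2 fold change of −0.55 with SE 0.07 and adjusted p = 0.00109). None of these 3 genes overlapped between groups, as the choice of the largest falls required, and the Epor-eGFP+ values of Rab8a were nearly equal. Rab8b, the sister of Rab8a, fell from 47.7 ± 4.63 to 38.3 ± 3.41 FPKM (adjusted p = 0.0387). Rab8b lost its call without Epor-eGFP- libraries 0 or 2 or Epor-eGFP+ libraries 0 or 1 (each left out singly) or with a common total, a common upper quartile or quantile normalization or without both libraries numbered 1, with adjusted p = 0.0573 to 0.135, and all 19 alternatives gave 0.000273 to 0.279. Rab37 fell with overlapping groups, at 14.9, 10.4 and 8.53 against 25.3, 22.5 and 13.8 FPKM (a log2 fold change of −0.80 with SE 0.26 and adjusted p = 0.0404). Rab37 lost its call without Epor-eGFP- libraries 0 or 1 or Epor-eGFP+ libraries 1 or 2 (each left out singly) or with a common total or a common upper quartile or without both libraries numbered 1, with adjusted p = 0.0559 to 0.190, and all 19 alternatives gave 0.00304 to 0.190. Rab13, the single rise, stayed low, at 2.67 ± 0.829 FPKM against 1.44 ± 0.335 (a log2 fold change of 0.57 with SE 0.19 and adjusted p = 0.0408). Rab13 lost its call without Epor-eGFP- libraries 1 or 2 or Epor-eGFP+ libraries 0 or 2 (each left out singly) or with quantile normalization or without both libraries numbered 2, with adjusted p = 0.0864 to 0.157, and all 18 alternatives gave 0.00421 to 0.157. Rab27b, the sister of Rab27a, was at 1.02, 2.31 and 0.571 FPKM against 0.599, 1.26 and 0.321, with overlapping groups. It passed with the replicate block (adjusted p = 0.0403) but not without it (adjusted p = 0.347, and up to 0.928 over all alternatives). Among other Rab genes, Rab36 fell from 2.196, 1.58 and 3.25 FPKM in libraries 0, 1 and 2 of the Epor-eGFP- group to 0.333, 0.556 and 0.412 in Epor-eGFP+ libraries, where it was under 1 FPKM throughout (a log2 fold change of −1.19 with SE 0.19 and adjusted p = 0.00300). Its ratio of group means, 0.185, was below the 0.240 of Rab11fip4.

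Of 8 tested Rab genes of the ER, Golgi and lipid droplets 4 fell and none rose (limma), where 26.3% of all tested genes fell. Rab33b, a Golgi GTPase linked to autophagy, fell from 6.22, 5.81 and 7.46 FPKM in libraries 0, 1 and 2 of the Epor-eGFP- group to 4.09, 4.03 and 4.27 in Epor-eGFP+ libraries (a log2 fold change of −0.54 with SE 0.10 and adjusted p = 0.00530). Rab6a, which guides vesicles from and to the Golgi, fell from 39.2 ± 1.48 to 31.6 ± 1.35 FPKM (a log2 fold change of −0.30 with SE 0.07 and adjusted p = 0.0101). Rab6a lost its call with a common total, with adjusted p = 0.0826, and all 19 alternatives gave 9.20e-05 to 0.171. Rab1b, a GTPase of transport from the ER to the Golgi, and Rab43 fell by 0.23 and 0.23 on the log2 scale (adjusted p = 0.0241 and 0.0327). Rab1b lost its call without Epor-eGFP- libraries 0 or 2 or Epor-eGFP+ libraries 0 or 1 (each left out singly) or with a common total, a common upper quartile or quantile normalization or without both libraries numbered 1, with adjusted p = 0.0566 to 0.157, and all 19 alternatives gave 0.000333 to 0.264. Rab43 lost its call without Epor-eGFP- libraries 0 or 2 or Epor-eGFP+ libraries 0 or 1 (each left out singly) or with a common total, a common upper quartile or quantile normalization or without both libraries numbered 1 or both numbered 2, with adjusted p = 0.0513 to 0.167, and all 19 alternatives gave 0.000366 to 0.291. Beside the falls of secretory and Golgi Rab genes stand the falls of all 9 monocyte and of 9 of the 14 neutrophil markers. Another 4 neutrophil markers rose (Elane, Mpo, Prtn3 and Ctsg, log2 fold changes 2.16 to 2.33). The part of these markers in the falls of the Rab genes was not tested.

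**Figure D3:**
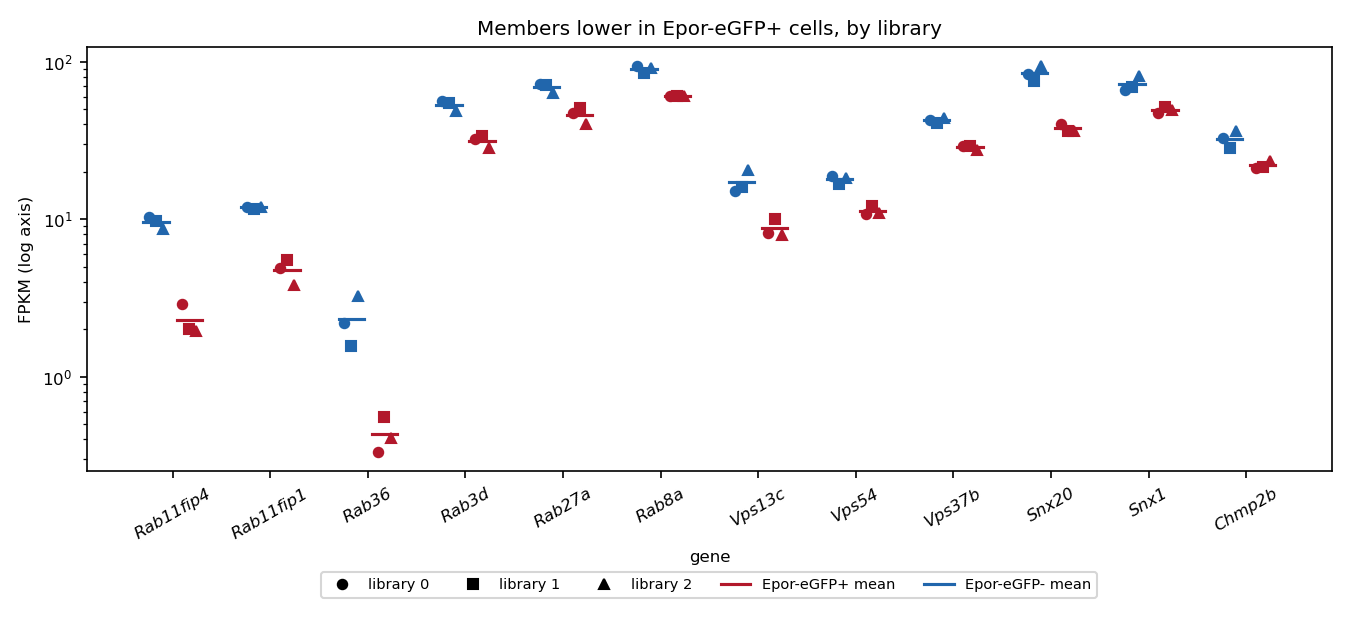
FPKM on a log axis of 12 members that fell in Epor-eGFP+ cells, in each library (circles, squares and triangles for libraries 0, 1 and 2), with a line at each group mean. Red marks Epor-eGFP+ and blue Epor-eGFP-. No gene has overlapping groups, which was a condition for picking all of them but Chmp2b. The widest gaps between means on this axis are at Rab36 (0.434 ± 0.113 against 2.34 ± 0.846 FPKM) and Rab11fip4 (2.30 ± 0.526 against 9.58 ± 0.855 FPKM).

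Of the 4 core retromer genes 1 rose and 1 fell, beside 22.7% and 26.3% of all tested genes. Vps35, the scaffold of the complex, was at 57.0, 59.9 and 62.5 FPKM in libraries 0, 1 and 2 of the Epor-eGFP+ group against 58.4, 59.4 and 56.0 FPKM, with overlapping groups (a log2 fold change of 0.04 with SE 0.07 and adjusted p = 0.610). Vps29 rose from 31.1 ± 1.26 to 37.4 ± 2.78 FPKM (a log2 fold change of 0.26 with SE 0.08 and adjusted p = 0.0299). Vps29 lost its call without Epor-eGFP- libraries 0 or 2 or Epor-eGFP+ libraries 0 or 2 (each left out singly) or without both libraries numbered 1 or both numbered 2, with adjusted p = 0.0522 to 0.106, and all 19 alternatives gave 0.00113 to 0.218. Of the alternative Vps26 subunits, Vps26b fell from 21.1 ± 1.17 to 17.6 ± 1.27 FPKM (a log2 fold change of −0.26 with SE 0.08 and adjusted p = 0.0357), while Vps26a was at 34.9 ± 4.23 against 34.9 ± 2.103 FPKM (SE 0.10 on the log2 scale, adjusted p = 0.980). Vps26b lost its call without Epor-eGFP- libraries 0 or 1 or Epor-eGFP+ libraries 0 or 2 (each left out singly) or with a common total, a common upper quartile or quantile normalization or without both libraries numbered 1 or both numbered 2, with adjusted p = 0.0566 to 0.218, and all 19 alternatives gave 0.000397 to 0.290. The sign of the Vps26a change turned under each rescaling, under quantile normalization and in 3 of the 6 fits that left out a single library, and over all alternatives its adjusted p ran from 0.35 to 0.994. The sign of the Vps35 change turned with library weights (−0.03).

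Of the 5 sorting nexins that bend the membrane in the retromer pathway, 1 rose and 1 fell. Snx5 rose and had the highest mean of all sorting nexins in the Epor-eGFP+ group. It was at 159.6, 132 and 228 FPKM in libraries 0, 1 and 2 of the Epor-eGFP+ group against 83.6, 74.8 and 89.7 FPKM in the other group, with no overlap and the highest value in Epor-eGFP+ library 2 (a log2 fold change of 1.02 with SE 0.19 and adjusted p = 0.00539). Its mean was 173 ± 49.3 against 82.7 ± 7.49 FPKM, or 146 without that library. Snx1, a partner of Snx5 in this coat, fell, at 47.2, 51.8 and 49.6 FPKM against 66.2, 68.7 and 80.9 FPKM (a log2 fold change of −0.52 with SE 0.09 and adjusted p = 0.00427). Snx2, which can stand in for Snx1, was at 59.3 ± 5.59 against 70.2 ± 9.10 FPKM (adjusted p = 0.125, 0.0317 with the replicate block and 0.00186 to 0.414 over all alternatives). Snx6, which can stand in for Snx5, was at 37.3, 34.2 and 49.5 against 40.0, 35.7 and 35.9 FPKM with overlapping groups (adjusted p = 0.586), and its log2 fold change of 0.10 was −0.06 without Epor-eGFP+ library 2. The ratio of Snx5 to Snx1 was 3.38, 2.55 and 4.59 in Epor-eGFP+ and 1.26, 1.09 and 1.11 in Epor-eGFP- cells, and that of Snx5 to Snx6 was 4.27, 3.86 and 4.60 against 2.09, 2.09 and 2.50 (exact permutation p = 0.1 for each). Snx5 spans chr2:144250123-144270906 (minus strand), where its exons share bases with Mgme1 on the other strand.

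Other sorting nexins that rose were mostly of low or middle level. Snx24, a small PX-domain protein, was at 4.45, 2.96 and 8.74 FPKM in libraries 0, 1 and 2 of the Epor-eGFP+ group against 0.584, 0.499 and 0.398 FPKM, under 1 FPKM in each Epor-eGFP- library (a log2 fold change of 1.99 with SE 0.30 and adjusted p = 0.00250). Its mean of 5.38 ± 3.001 FPKM was 3.70 without Epor-eGFP+ library 2. Snx25, a member of the sorting nexins with an RGS-like domain, was at 16.4, 11.9 and 33.2 FPKM against 6.96, 6.33 and 6.77 (a log2 fold change of 1.36 with SE 0.32 and adjusted p = 0.0133), or a mean of 14.1 in place of 20.5 ± 11.3 FPKM without that library. Its exons share bases with Cfap97 on the other strand. Snx8, a SNX-BAR protein of endosome-to-Golgi transport, was at 16.4, 13.1 and 21.4 FPKM against 8.13, 6.40 and 9.28 (a log2 fold change of 0.99 with SE 0.19 and adjusted p = 0.00583). Snx9, which binds dynamin at forming endocytic pits, was at 30.4, 26.9 and 41.8 FPKM against 20.3, 20.8 and 22.4 (a log2 fold change of 0.59 with SE 0.15 and adjusted p = 0.0180). Snx9 lost its call without Epor-eGFP- library 0, with adjusted p = 0.0626, and all 19 alternatives gave 0.000227 to 0.131. Snx15 rose from 11.7 ± 0.646 to 16.4 ± 2.02 FPKM (a log2 fold change of 0.46 with SE 0.10 and adjusted p = 0.0105). Each of these 5 genes was lowest in library 1 and highest in library 2 among the Epor-eGFP+ libraries.

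Snx20, a leukocyte sorting nexin that binds the adhesion molecule PSGL-1, had the largest fall of its family on the log2(FPKM + 1) scale. It was at 40.5, 36.4 and 36.1 FPKM in libraries 0, 1 and 2 of the Epor-eGFP+ group against 83.7, 75.7 and 93.3 FPKM, with narrow spread and no overlap (a log2 fold change of −1.14 with SE 0.10 and adjusted p = 0.000460). Snx33 fell from 2.41 ± 0.195 to 1.61 ± 0.144 FPKM (a log2 fold change of −0.39 with SE 0.10 and adjusted p = 0.0178). Snx33 lost its call without Epor-eGFP- libraries 0 or 2 (each left out singly) or without both libraries numbered 1 or both numbered 2, with adjusted p = 0.0503 to 0.0875, and all 18 alternatives gave 0.00123 to 0.143. Snx3, a PX-only protein that recruits retromer, with the second highest mean of the sorting nexins over the 6 libraries, was at 112, 110.0 and 138 FPKM against 91.7, 101 and 104. Its groups did not overlap, yet it missed the threshold (adjusted p = 0.0734) and passed with the replicate block (0.0286; 0.00512 to 0.275 over all alternatives).

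None of the 8 genes of the HOPS, CORVET and CHEVI tethers passed the test in either direction (limma). An unadjusted p below 0.05 was found in 6213 of all 10964 tested genes and in 1 of these 8. Vps41, a HOPS subunit needed for fusion with lysosomes, was that gene, at 24.4, 21.3 and 31.04 FPKM in libraries 0, 1 and 2 of the Epor-eGFP+ group against 19.8, 18.8 and 20.9 FPKM. Its groups did not overlap (adjusted p = 0.0743), and it passed without Epor-eGFP+ library 1 (0.0238), over a range of 0.00254 to 0.270 in all alternatives. Vps33a, which binds SNARE proteins in these tethers, was at 19.6 ± 3.51 against 16.5 ± 1.48 FPKM (adjusted p = 0.192, 0.0427 with the replicate block and 0.0269 to 0.464 over all alternatives). Vps18, the core subunit shared by HOPS and CORVET, was at 13.8 ± 1.57 against 12.5 ± 0.905 FPKM (adjusted p = 0.319). Vps45, a partner of endosomal syntaxins, rose from 6.01 ± 0.235 to 7.22 ± 0.191 FPKM (a log2 fold change of 0.23 with SE 0.07 and adjusted p = 0.0363). Vps45 lost its call without Epor-eGFP- libraries 0, 1 or 2 or Epor-eGFP+ libraries 0, 1 or 2 (each left out singly) or with quantile normalization or without both libraries numbered 1 or both numbered 2, with adjusted p = 0.0624 to 0.127, and all 19 alternatives gave 0.00192 to 0.260.

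Of the 6 ESCRT-I and ESCRT-II genes 3 fell and none rose, where 26.3% of all tested genes fell. An unadjusted p was below 0.05 in 4 of the 6, beside 6213 of all 10964 tested genes. Vps37b, an ESCRT-I subunit, was at 29.3, 29.3 and 27.7 FPKM in libraries 0, 1 and 2 of the Epor-eGFP+ group against 42.8, 40.6 and 44.0 FPKM, with no overlap (a log2 fold change of −0.55 with SE 0.07 and adjusted p = 0.00120). Vps37c (log2 fold change −0.29, adjusted p = 0.00897) and Vps36 (log2 fold change −0.28, adjusted p = 0.0226) were the other falls. Vps36 lost its call without Epor-eGFP- libraries 1 or 2 or Epor-eGFP+ libraries 0 or 2 (each left out singly) or with a common total, a common upper quartile or quantile normalization or without both libraries numbered 2, with adjusted p = 0.0537 to 0.166, and all 19 alternatives gave 0.00107 to 0.166. Vps37c lost its call with a common total, with adjusted p = 0.0858, and all 19 alternatives gave 0.000384 to 0.125. Vps28 and Vps25, the most abundant Vps genes, were at 77.8 ± 3.15 against 87.6 ± 3.84 and at 60.7 ± 0.534 against 57.2 ± 2.34 FPKM. Neither passed (adjusted p = 0.0820 and 0.293), although Vps28 did with the replicate block (0.0362; 0.00505 to 0.457 over all alternatives), and each shares exon bases with a gene on the same strand (Tonsl and Ramp2).

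Of 4 Vps13 genes 3 fell, as did 2 of 4 genes of the GARP and EARP tethers, where 26.3% of all tested genes fell. Vps13c, a lipid transfer protein at contacts of the ER with late endosomes, was at 8.22, 10.1 and 7.95 FPKM in libraries 0, 1 and 2 of the Epor-eGFP+ group against 15.2, 16.0 and 20.7 FPKM (a log2 fold change of −0.90 with SE 0.14 and adjusted p = 0.00256). Vps13b fell from 13.6 ± 0.623 to 10.2 ± 1.06 FPKM (a log2 fold change of −0.39 with SE 0.09 and adjusted p = 0.0115) and Vps13d by 0.35 on the log2 scale (adjusted p = 0.0222). Vps13b lost its call without Epor-eGFP+ library 0 or with a common total or without both libraries numbered 2, with adjusted p = 0.0510 to 0.0579, and all 19 alternatives gave 0.000171 to 0.119. Vps13d lost its call without Epor-eGFP- library 0 or Epor-eGFP+ libraries 0 or 2 (each left out singly) or with a common total or a common upper quartile, with adjusted p = 0.0516 to 0.0954, and all 19 alternatives gave 0.000339 to 0.197. Vps54, a subunit of the GARP tether that receives endosomal vesicles at the Golgi, was at 10.8, 12.2 and 10.9 FPKM against 18.8, 16.6 and 18.2 (a log2 fold change of −0.62 with SE 0.08 and adjusted p = 0.00159). Vps51, which GARP shares with the EARP tether of recycling endosomes, fell from 23.6 ± 2.35 to 17.8 ± 0.271 FPKM (a log2 fold change of −0.38 with SE 0.08 and adjusted p = 0.00993). Vps9d1 fell from 17.8 ± 1.84 to 10.9 ± 0.845 FPKM (a log2 fold change of −0.66 with SE 0.10 and adjusted p = 0.00226). The exons of Vps13b and Vps9d1 share bases with genes on the other strand.

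All 9 Chmp genes had log2 fold changes below 0, from −0.53 for Chmp2b to −0.05 for Chmp7, although those of Chmp6 and Chmp7 turned above 0 with libraries rescaled to a common total, and that of Chmp7 also with the upper quartile as the common scale. Chmp2b fell, at 21.2, 21.4 and 23.5 FPKM in libraries 0, 1 and 2 of the Epor-eGFP+ group against 32.7, 28.2 and 36.1 FPKM (a log2 fold change of −0.53 with SE 0.10 and adjusted p = 0.00572). Its paralog Chmp2a fell as well, at 82.9, 87.9 and 90.4 FPKM against 105, 111 and 118 (a log2 fold change of −0.35 with SE 0.08 and adjusted p = 0.00901). Chmp2a lost its call without both libraries numbered 1, with adjusted p = 0.0519, and all 19 alternatives gave 0.000186 to 0.103. Chmp1b fell from 23.5 ± 1.14 to 17.8 ± 1.96 FPKM (a log2 fold change of −0.39 with SE 0.09 and adjusted p = 0.0130). Chmp1b lost its call without Epor-eGFP+ library 0, with adjusted p = 0.0553, and all 19 alternatives gave 8.03e-05 to 0.155. Chmp4b, the main filament subunit and the most abundant Chmp gene, was at 122 ± 11.8 against 147 ± 12.7 FPKM without overlap and missed the threshold (adjusted p = 0.0650). Chmp1a, Chmp5 and Chmp3 missed it too (adjusted p = 0.0575, 0.0669 and 0.0918). These 4 genes passed with the replicate block (adjusted p = 0.0136, 0.0154, 0.0240 and 0.0334 for Chmp4b, Chmp1a, Chmp5 and Chmp3). They passed without Epor-eGFP+ library 2 too (0.0369, 0.0340, 0.0191 and 0.0474). Over all alternatives their adjusted p ran from 0.00390 to 0.255, 0.00144 to 0.313, 0.000417 to 0.401 and 0.00152 to 0.426. Chmp6 and Chmp7 were not called (adjusted p = 0.477 and 0.577). The ATPase genes that disassemble ESCRT-III, Vps4a and Vps4b, were at 24.0 ± 0.439 against 24.6 ± 0.0193 FPKM and 37.8 ± 2.15 against 42.1 ± 2.23 FPKM. Neither was called by limma or had an unadjusted p below 0.05, where 6213 of all 10964 tested genes had one. The sign of the Vps4a change turned under each rescaling and under quantile normalization.

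**Figure D4:**
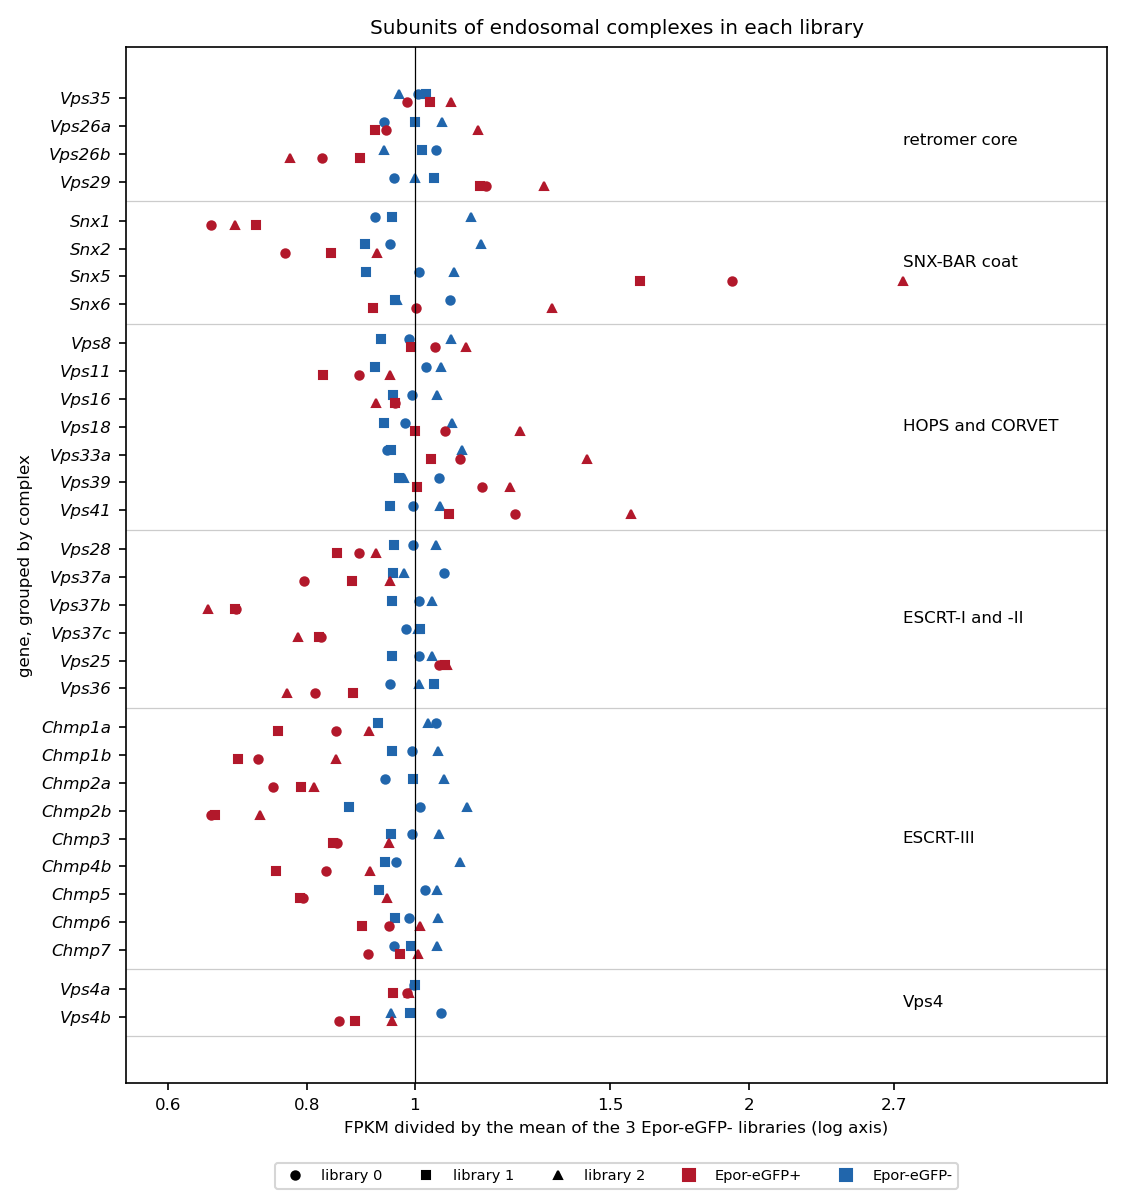
FPKM of the subunits of endosomal complexes in each library, divided by the mean of the 3 Epor-eGFP- libraries, on a log axis, with circles, squares and triangles for libraries 0, 1 and 2. Red marks Epor-eGFP+ and blue Epor-eGFP-. Snx5 stands to the right in all 3 Epor-eGFP+ libraries and Snx1, Vps37b and Chmp2b to the left, while Vps35, Vps8 and Vps16 lie around 1 in both groups.

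Partners of these proteins had more falls than rises as deposited. They come from a list of 94 symbols that the rule did not match, some of them other names of the same gene. Of 83 tested, 8 rose (9.64%, beside 22.7% of all tested genes) and 24 fell (28.9%, beside 26.3%), with a median of −0.13. With libraries rescaled to a common total 15 partners rose and 12 fell, where of all tested genes 3053 rose and 2082 fell. With the replicate block 13 rose, beside 3066 of all tested genes. The count of 8 rises was 2 without Epor-eGFP- library 0 and 3 without Epor-eGFP- library 2, beside 1730 and 1958 of all tested genes. Without Epor-eGFP+ library 0, 3 rose and 12 fell, beside 1634 and 2057 of all tested genes. Inpp5f, a phosphoinositide phosphatase of endosomes, was at 5.62, 6.63 and 5.19 FPKM in libraries 0, 1 and 2 of the Epor-eGFP+ group against 19.0, 14.9 and 19.8 FPKM (a log2 fold change of −1.47 with SE 0.13 and adjusted p = 0.000535). Rin3, an exchange factor that activates Rab5 proteins, was at 85.1, 74.1 and 81.8 FPKM against 163, 157 and 174 (a log2 fold change of −1.03 with SE 0.08 and adjusted p = 0.000389), and its relative Rin2 fell by 0.71 on the log2 scale (adjusted p = 0.00958). Partners were named only where the groups did not overlap, so the lack of overlap in these 3 genes is no result. Cd81, a tetraspanin of the surface and of exosomes, rose from 52.1, 49.97 and 36.5 to 144, 117 and 229 FPKM (a log2 fold change of 1.76 with SE 0.25 and adjusted p = 0.00206). Plekhm2, which links lysosomes to kinesin, rose from 11.3, 9.52 and 10.8 FPKM to 24.2, 13.6 and 32.6 FPKM (a log2 fold change of 1.01 with SE 0.28 and adjusted p = 0.0232). Plekhm2 lost its call without Epor-eGFP- libraries 0, 1 or 2 or Epor-eGFP+ library 0 (each left out singly) or without both libraries numbered 2, with adjusted p = 0.0578 to 0.0756, and all 19 alternatives gave 0.000162 to 0.154. Ehd2, an ATPase of caveolar membrane, stayed low at 2.18 ± 0.517 against 1.23 ± 0.183 FPKM (a log2 fold change of 0.50 with SE 0.15 and adjusted p = 0.0287). Ehd2 lost its call without Epor-eGFP- libraries 0, 1 or 2 or Epor-eGFP+ libraries 0 or 1 (each left out singly) or with quantile normalization or without both libraries numbered 1, with adjusted p = 0.0507 to 0.166, and all 18 alternatives gave 0.000697 to 0.166. By list, of 14 ESCRT partner genes 5 fell and none rose, of 11 genes of endosomal phosphoinositide enzymes 5 fell and none rose, and of 8 genes of Rab prenylation and recycling 4 fell and 1 rose. Of 12 tested genes of Rab5 effectors and exchange factors 4 fell and 1 rose, of 7 for Rab7 2 fell and 1 rose, and of 14 for endosomal SNAREs and recycling ATPases 3 fell and 1 rose. Of 8 tested genes of WASH and retriever partners 1 fell and 1 rose, and of 5 other HOPS and CORVET partners 2 rose and none fell. Of 4 genes of late endosomes and exosomes (the tetraspanin genes Cd63, Cd9 and Cd81, and Sdcbp) 1 rose and none fell.

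Most members that rose had the same order across the Epor-eGFP+ libraries. Of the 16, 13 were highest in library 2 (81.2%, beside 35.5% of all genes that rose). Library 1 was lowest for 14, and 12 (75.0%) ran in the order of library 1, then 0, then 2. Of all 2489 genes that rose, 733 (29.4%) ran in that order. The summed levels of the macrophage and island macrophage markers had the same order, at 3066, 2004 and 6268 and 2102, 1103 and 4259.6 FPKM in libraries 0, 1 and 2. Sums of the erythroid markers (1111, 484 and 1959.5 FPKM) and B cell markers (146.8, 145.6 and 209.9 FPKM) ran in that order too. So did the sum of the whole table, at 469338, 467176 and 501037 FPKM, while those of the other marker lists did not. Of the 36 members that fell, 17 were highest in library 1 (47.2%, beside 48.3% of all genes that fell), 13 in library 2 and 6 in library 0. Of the 72 without a call, 54 were highest in library 2 (75.0%, beside 35.8% of all genes without a call). The part of the marker levels and of the library totals in this pattern was not tested. Without Epor-eGFP+ library 2, 12 members rose and 41 fell, beside 2479 and 2695 of all tested genes.

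Some values cannot be read singly. By the annotation (GENCODE M21, GRCm38) 49 of the 128 members share exon bases with another gene, 36 of them with a gene on the opposite strand, and the labels do not say that counting used strand. Rab10os and Rab26os are antisense transcripts with a Rab symbol. They were at 5.26 ± 0.107 against 5.95 ± 0.446 FPKM (adjusted p = 0.168) and 4.33 ± 0.676 against 2.84 ± 0.140 FPKM (adjusted p = 0.0150), and Rab26os rose. Rab26os lost its call without Epor-eGFP- library 0 or Epor-eGFP+ library 0 (each left out singly) or without both libraries numbered 2, with adjusted p = 0.0553 to 0.0604, and all 18 alternatives gave 9.16e-05 to 0.178. Vps72, which matched by symbol, encodes a chromatin remodelling subunit and was at 32.0 ± 0.714 against 29.9 ± 1.82 FPKM (adjusted p = 0.303).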

How the data were processed

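RNA of 6 libraries was measured. Per the labels' protocols, libraries were made with a TruSeq RNA kit. The authors deposited a table of 11489 genes with values in FPKM, per the file header, and the submitters' processing notes name Cufflinks 2.2.1, TopHat2 2.1.0, Trimmomatic 0.35, bcl2fastq 2.19.1.403 and build mm10, without role or order. Annotation, filters, strand use in counting and how libraries were scaled: not given in the sources used here. Columns were assigned to groups by name, since their numbers (0 to 2) differ from those of the labels. Library medians ran from 11.7 to 11.8 FPKM and totals from 467176 to 519650 FPKM, and FPKM hold no counts, so no counting error is given.

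The 10964 genes averaging 1 FPKM or more were fitted with limma 3.58.1 (R 4.3.3) on log2(FPKM + 1), by group alone, with eBayes and a trend. Two-sided p-values got the Benjamini-Hochberg adjustment over those genes, and calls are at 0.05. Fold changes on this scale understate low genes. Means ± SD are of FPKM over 3 libraries. The fit was tested on simulated data with independent libraries and few changed genes. The data here differ in both, so that test cannot tell how reliable the calls are. Deviations of same-numbered libraries correlated at 0.252, 0.377 and 0.348 (minimum set at 0.1), so the column number entered an alternative fit as a replicate block. The pairing comes from the column names and no label says what the numbers mark.

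Named were fixed members, all Chmp genes, up to 6 rises and 6 falls per family and 3 each among partners (largest fold change, no overlap, at least 2 FPKM), the 2 most abundant per family and the untested members. Members and lists were chosen with earlier results of these data known. Starts and sequences are from RefSeq (GRCm38.p6) and gene positions from GENCODE M21.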

Additional observations from a re-analysis of the deposited data

How the results depend on the processing

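The alternatives were other pseudocounts (0.1 and 5 FPKM), no filter or a mean of at least 5 FPKM, other scalings, no trend, library weights, the replicate block and each library left out. Leaving out both libraries with the same column number was chosen after seeing the data. An arm left with 2 libraries was assumed to vary like the other. Over 79 named genes and their alternatives, 1242 of 1491 values kept their direction and their side of the threshold, 190 lost a call, 37 gained one and 22 turned sign, the last in 7 genes without a call.

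With libraries rescaled to a common total, 22 members fell, as did 11 Rab rows, while 5 Vps genes rose and 5 fell and 15 partners rose and 12 fell. Of all tested genes 3053 rose and 2082 fell by that rescaling. The upper quartile gave 4 Vps rises, and a mean of at least 5 FPKM gave 4 Rab rises with fewer genes tested. Library weights, which let each library have its own variance, gave more calls: 3998 of all genes rose, 28 members rose and 63 fell, 32 Rab rows fell, 8 Vps genes rose, 10 Snx genes and 7 Chmp genes fell, and 20 partners rose and 44 fell. The replicate block, which pairs libraries by column number, gave 3066 rises and 3335 falls of all genes. It gave 22 rises and 50 falls of members, 10 Rab rises, 25 Rab falls, 5 Vps rises, 6 Snx falls, 7 Chmp falls and 13 partner rises. It changed the named calls given above and no other. The cause was not tested.

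With libraries left out, rises ran from 492 to 2479 of all genes, 2 to 16 members, 1 to 8 Rab, 0 to 2 Vps and 1 to 6 Snx genes and 1 to 9 partners. Falls ran from 921 to 2695 of all genes, 7 to 41 members, 4 to 22 Rab, 2 to 10 Vps, 1 to 5 Snx and 0 to 7 Chmp genes and 3 to 24 partners. The lowest counts came without both libraries numbered 0.

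Turned log2 fold changes, with a common total, were 0.0950 for Vps26a, 0.0643 for Vps4a, 0.0288 for Chmp6 and 0.0426 for Chmp7. With the upper quartile they were 0.0574 for Vps26a, 0.0271 for Vps4a and 0.00616 for Chmp7, and under quantile normalization 0.0621 for Vps26a and 0.0284 for Vps4a. Library weights gave −0.0114 for Rab5c, −0.0289 for Vps35 and −0.0523 for Snx6. With libraries left out, values ranged from −0.103 to 0.108 for Rab5c, −0.0981 to 0.0540 for Vps26a, −0.0112 to 0.0834 for Vps35 and −0.0805 to 0.205 for Snx6. Depth is unknown, so its limits cannot be given.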
